A study of Mus musculus with 8 samples.

Results

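Expression of 10 genes of the NRF2 antioxidant programme and of aldehyde detoxification was described over 4 murine tumour lines. They came from genetically engineered mouse models of LUSC, lung squamous cell carcinoma. The genes were Nfe2l2, Nqo1, Gclc, Gclm, Hmox1, Txnrd1, Srxn1, Slc7a11, Aldh3a1 and G6pdx. They were taken by gene symbol from the 55487 genes in the deposited tables, and each symbol matched 1 row. All 10 passed the filter on low counts, which left 18648 genes. The lines were named PL1 and PL12 (the PL lines) and PLA and PLA4 (the PLA lines), here called the 2 families, with 2 RNA-seq libraries of each and 8 in all. ACKR3, an atypical chemokine receptor, is the gene whose loss the series addresses. The labels do not spell out the letters of the names, the alleles, the sex or age of the source animals, or any treatment, and each line is a single tumour-derived line, so a difference between PLA and PL lines cannot be told apart from a difference between individual lines. The labels are silent on whether the pair of libraries from each line represents separate cultures, and p-values therefore reflect only library spread, which may be technical.

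NRF2, encoded by Nfe2l2, is a transcription factor that is held at a low level by the adaptor KEAP1, which presents it for degradation. When reactive electrophiles or oxidants modify KEAP1, NRF2 accumulates, pairs with small MAF proteins and binds antioxidant response elements near genes for glutathione synthesis, the thioredoxin system, NADPH supply and detoxification of quinones and aldehydes. Because much of its control acts on the protein, the mRNA of Nfe2l2 is not a direct readout of NRF2 activity. In squamous lung cancer this programme is known to be frequently activated by mutations of the pathway, and aldehyde dehydrogenases are also expressed by normal airway and squamous epithelium.

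Depth ran from 48857960 to 142458281 counts per library, and 12016 to 12507 genes reached 1 CPM (counts scaled to a common library size with TMM factors). Ackr3 stood at 25.3 to 86.3 CPM in the 4 PL libraries and at 0.0254 to 0.387 CPM in the 4 PLA-line libraries. All 6 squamous markers (Trp63, Krt5, Krt14, Sox2, Krt6a, Dsg3) were present in every line. Their summed level was 1320 to 1396 TPM (transcript abundance, scaled for transcript length and to a common total) in PL12 and 7299 to 14540 TPM in the other libraries. Of markers of other cells, Ptprc, Cd3e and Adgre1 were at or below 0.01 TPM everywhere. The 7 immune markers summed to 18.6 to 18.9 TPM in PLA, most of it Itgam. In PL12 they summed to 8.92 to 10.3 TPM, nearly all from Csf1r (5.47 and 5.48 TPM) and Ly6g (4.46 and 3.22 TPM). The immune sum was at most 0.97 TPM in PL1 and PLA4. The 6 fibroblast markers summed to 83.4 TPM in PL1 replicate 2, against 0.79 TPM in PL1 replicate 1 and at most 3.03 TPM elsewhere. In PL1 replicate 2 Col1a1 made 69.0 TPM of this, Dcn 10.4, Col3a1 2.73 and Pdgfra 1.26. Col1a2 and Lum stayed at 0.06 and 0.01 TPM there. The 6 endothelial markers summed to at most 1.29 TPM. The 6 lung alveolar and airway markers summed to 31.7 to 41.9 TPM in PL12 and 17.2 to 17.6 TPM in PLA. They summed to 0.38 to 5.61 TPM in PLA4 and 1.73 to 2.37 TPM in PL1. In PL12 the sum came from Foxj1 (25.8 and 36.0 TPM) and Nkx2-1 (5.96 and 5.94 TPM), and Nkx2-1 was at most 0.14 TPM elsewhere. Since these are bulk samples, fewer cells of a type and less RNA per cell cannot be told apart. On log2(CPM + 1) over all genes tested, the libraries of a line correlated at 0.999 in PLA and 0.997 in PL12, but at 0.978 in PL1 and 0.974 in PLA4.

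RefSeq promoter windows (build GRCm38.p6, 250 bases before to 50 after a start site) were held for 7 of the 10 genes. They were searched on both strands for TGACNNNGC, the core of the antioxidant response element, and for TGANTCA, the AP-1 type motif, which reads the same on either strand. The first was found in windows of 5 of the 7 genes (Nfe2l2, Srxn1, Gclm, 1 of 3 windows of Txnrd1, and G6pdx). By window, 5 of the 9 windows of these genes held it, against 12.4% of all 32851 windows. The second was found in 1 of the 7, Srxn1, which held it at 2 places. By window this was 1 of the 9, against 7.81% of all windows. No overlap between matches to the motifs occurred in these windows. The windows of Nqo1 and Slc7a11 held neither, which says only that these letters are not in those bases. The 250 bases upstream are shown for G6pdx, Srxn1 and Nqo1, whose line means had the same order in these cells, and for the Txnrd1 window with a match, since Txnrd1 had another order. Upstream and all positions refer to the RefSeq start sites. By the GENCODE coordinates given below, the bases shown for G6pdx and for Txnrd1 lie inside the gene. Capitals mark a motif match. In G6pdx it is TGACTGAGC on the opposite strand from -57 to -49, in Txnrd1 TGACAAAGC on the opposite strand from -92 to -84, and in Srxn1 TGAGTCA at -102 and at -45. In Srxn1 the antioxidant element core lay downstream of the start site, from 29 to 37, and is not in the bases shown. A match is a description of the sequence, not evidence of binding.
G6pdx, chrX:74428881-74429130, minus strand: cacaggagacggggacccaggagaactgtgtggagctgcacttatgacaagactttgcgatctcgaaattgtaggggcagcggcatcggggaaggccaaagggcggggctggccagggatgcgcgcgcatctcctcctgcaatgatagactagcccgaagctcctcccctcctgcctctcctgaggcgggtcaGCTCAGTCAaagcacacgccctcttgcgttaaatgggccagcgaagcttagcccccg
Srxn1, chr2:152105274-152105523, plus strand: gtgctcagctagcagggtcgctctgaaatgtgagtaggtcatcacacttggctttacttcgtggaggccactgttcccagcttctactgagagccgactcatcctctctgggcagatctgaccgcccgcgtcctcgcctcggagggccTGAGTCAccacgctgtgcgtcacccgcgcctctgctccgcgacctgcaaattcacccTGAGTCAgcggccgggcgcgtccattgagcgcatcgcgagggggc
Nqo1, chr8:107403206-107403455, minus strand: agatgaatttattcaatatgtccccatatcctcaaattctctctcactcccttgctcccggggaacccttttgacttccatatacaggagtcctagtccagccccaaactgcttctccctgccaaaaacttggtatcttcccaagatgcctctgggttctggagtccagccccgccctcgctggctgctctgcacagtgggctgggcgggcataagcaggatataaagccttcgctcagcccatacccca
Txnrd1, chr10:82858956-82859205, plus strand: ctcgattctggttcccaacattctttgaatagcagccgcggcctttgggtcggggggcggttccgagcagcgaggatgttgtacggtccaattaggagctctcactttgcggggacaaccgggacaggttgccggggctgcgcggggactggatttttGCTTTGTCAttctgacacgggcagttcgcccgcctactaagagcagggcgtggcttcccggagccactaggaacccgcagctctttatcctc

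Of the 10 genes, 5 differed among the 4 lines at an adjusted p under 0.05 (edgeR's quasi-likelihood F-test over the line means, Benjamini-Hochberg adjustment over all genes tested), against 52.9% of all genes. Aldh3a1, Slc7a11, G6pdx, Txnrd1 and Nqo1 passed, while Srxn1, Nfe2l2, Hmox1, Gclc and Gclm did not. The share is close to the background. Over the 6 pairs of lines, 18 of 60 gene and pair combinations were called, against 27.1% over all genes. G6pdx accounted for 5 of these, Aldh3a1 for 4, Slc7a11 and Txnrd1 for 3 each, Nqo1 for 2 and Srxn1 for 1. The line means of Aldh3a1, G6pdx, Nqo1 and Srxn1 had the order PLA, PLA4, PL1, PL12, and those of the other 6 genes had other orders. The number differing among the lines changed when single libraries were left out, and the share of all genes was not counted in those fits.

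**Figure D1:**
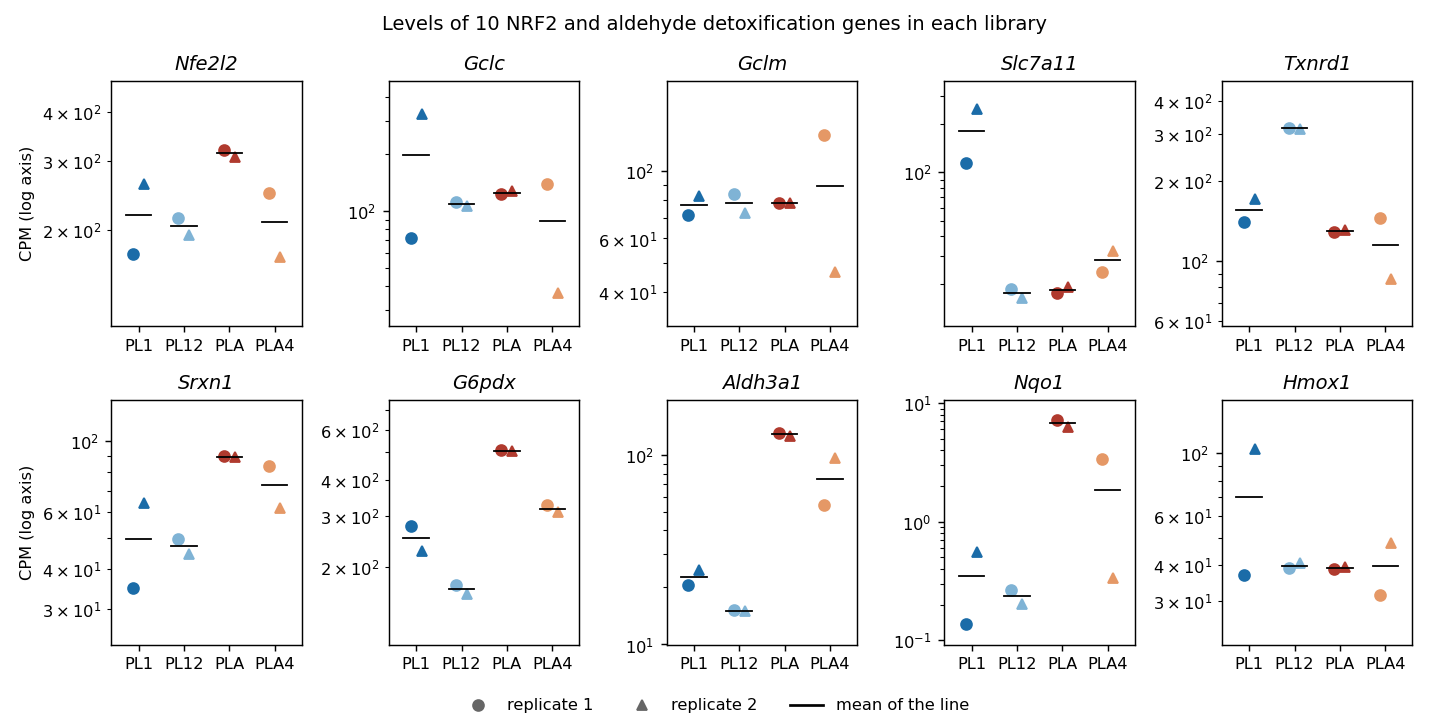
Level of each gene in each library, in CPM on a log axis that differs between panels, with circles for replicate 1, triangles for replicate 2 and bars for the mean of the 2 libraries of a line. Aldh3a1 and G6pdx are higher in all 4 libraries of PLA and PLA4 than in all 4 of PL1 and PL12, Slc7a11 is high in PL1 alone and Txnrd1 in PL12 alone, and the 2 libraries of PL1 and of PLA4 lie far apart for Gclc and Nqo1.

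Nfe2l2, the regulator itself (ENSMUSG00000015839.6, GRCm38 chromosome 2, 75675513 to 75704641), was among the more abundant transcripts. Its mean of 152 TPM over the libraries exceeded that of 94.7% of the genes tested. In CPM it stood at 174 and 262 in PL1 (replicates 1 and 2), 215 and 194 in PL12, 320 and 307 in PLA, and 249 and 171 in PLA4. Both PLA libraries were above the other 6, and the libraries of the other 3 lines overlapped. The test over the lines did not pass (edgeR adjusted p = 0.168), and the log2 differences of PLA from PL1 and PL12 were 0.52 ± 0.25 and 0.61 ± 0.25 (SE, adjusted p = 0.166 and 0.101). PLA4 differed from PL1 by -0.06 ± 0.25 and from PL12 by 0.04 ± 0.25, so PLA4, PL1 and PL12 did not differ beyond their spread.

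Glutathione is made by glutamate-cysteine ligase, with a catalytic subunit encoded by Gclc and a modifier subunit encoded by Gclm, from cysteine that the cell takes up as cystine through the antiporter encoded by Slc7a11. Slc7a11 (ENSMUSG00000027737.10, chromosome 3, 49892526 to 50443614) was high in 1 line. It stood at 114 and 248 CPM in PL1, 18.6 and 16.5 in PL12, 17.7 and 19.2 in PLA, and 23.8 and 32.5 in PLA4. Both PL1 libraries lay above all others, and the remaining lines lay close together. Relative to PL1, Slc7a11 was lower in PL12 (-3.37 ± 0.38), PLA (-3.29 ± 0.38) and PLA4 (-2.69 ± 0.37) on the log2 scale (SE, edgeR adjusted p = 0.00342, 0.00275 and 0.0160). The mean of PL1 was 10.3 times that of PL12, 9.81 times that of PLA and 6.44 times that of PLA4. Without PL1 replicate 2, the library with 83.4 TPM of fibroblast markers, these ratios were 6.52, 6.19 and 4.06. In the comparison with PLA4 the adjusted p was 0.0603 and 0.0603 without PL12 replicate 1 or 2, and 0.0574 and 0.0572 without PLA replicate 1 or 2. Both PLA4 libraries lay above those of PLA and PL12, by 0.61 ± 0.35 and 0.68 ± 0.35 on the log2 scale, which did not pass (0.239 and 0.175), and PLA and PL12 overlapped.

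The 2 subunits of the ligase were not called in any pair of lines. Gclc (ENSMUSG00000032350.9, chromosome 9, 77754535 to 77794485) stood at 72.0 and 324 CPM in PL1, 111 and 106 in PL12, 123 and 127 in PLA, and 139 and 36.9 in PLA4. The highest value, PL1 replicate 2, and the lowest, PLA4 replicate 2, had partners of the same line at the other end of the order, PL1 replicate 1 being the second lowest and PLA4 replicate 1 the second highest, so PL1 and PLA4 spanned the other lines (edgeR adjusted p over the lines = 0.551). Without PL1 replicate 2 the mean of PL1 and PL12 went from 1.44 to 0.848 times that of the PLA lines. Gclm (ENSMUSG00000028124.15, chromosome 3, 122245557 to 122270732) was the most even of the 10, with line means of 77.4 CPM in PL1, 78.2 in PL12, 78.4 in PLA and 89.0 in PLA4. Its libraries lay between 71.7 and 83.8 CPM in PL1, PL12 and PLA, while PLA4 held the highest and the lowest value, 131 and 46.4 CPM. The test over the lines gave an adjusted p of 0.960 with edgeR. Leaving out PLA4 replicate 1 or 2 moved it to 0.0262 and 0.0137, where the spread no longer held the distance between these libraries. Gclm overlaps Gm17494 on the opposite strand, which was assigned 19924 counts beside 70258 for Gclm, and no source used here says whether the counting used strand.

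In the thioredoxin system, Txnrd1 encodes the cytosolic reductase that keeps thioredoxin reduced with NADPH, and Srxn1 encodes sulfiredoxin, which repairs overoxidised peroxiredoxins. Txnrd1 (ENSMUSG00000020250.10, chromosome 10, 82833951 to 82897712) was high in PL12, at 316 and 314 CPM, against 140 and 171 in PL1, 129 and 131 in PLA, and 145 and 86.0 in PLA4. No library of another line came near the PL12 values, and PLA4 overlapped both PLA and PL1, whose libraries lay above those of PLA. Txnrd1 was higher in PL12 than in PL1 by 1.02 ± 0.25, and lower than in PL12 in PLA, by -1.28 ± 0.25, and in PLA4, by -1.45 ± 0.25 on the log2 scale (SE, edgeR adjusted p = 0.0314, 0.00998 and 0.00726). As ratios, PL12 held 2.02, 2.42 and 2.72 times the level of PL1, PLA and PLA4. Over the 4 lines the adjusted p of Txnrd1 was 0.0104, and 0.0681 or 0.0674 without PL12 replicate 1 or 2. The excess over PL1 missed the threshold without any 1 library of PL1, PL12 or PLA (0.0563 to 0.141), and the deficit of PLA missed it without any 1 library of PL12 or PLA (0.0588 to 0.0696). PL12 was also the line with the low squamous and the highest lung marker level, and the part of these in the result was not tested.

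Srxn1 (ENSMUSG00000032802.8, chromosome 2, 152105516 to 152111376) stood at 34.8 and 64.3 CPM in PL1, 49.6 and 44.5 in PL12, 90.1 and 89.1 in PLA, and 83.8 and 61.8 in PLA4. PLA was above every other library, and the families overlapped only through PL1 replicate 2, which was above PLA4 replicate 2. The only call was PLA over PL12, 0.93 ± 0.30 on the log2 scale (SE, edgeR adjusted p = 0.0488), and that of the 4 lines together was 0.0770. The call missed the threshold without any 1 library of PL12 or PLA (0.154 to 0.207) and without PLA4 replicate 2 (0.0558), while the test over the lines passed without PL1 replicate 1 (0.0253) or 2 (0.0112). It also missed the threshold with DESeq2 size factors (0.0605) or upper quartile scaling (0.0706) in edgeR and with a filter of at least 1 CPM in 2 libraries (0.0650). PLA4 against PLA (-0.30 ± 0.29, adjusted p = 0.475) and PL12 against PL1 (-0.07 ± 0.29, 0.880) did not pass, with both PLA libraries above both of PLA4 and those of PL12 within the range of PL1.

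NADPH for both glutathione and thioredoxin recycling comes largely from the pentose phosphate pathway, whose first enzyme, glucose-6-phosphate dehydrogenase, is encoded by G6pdx. G6pdx (ENSMUSG00000031400.10, chromosome X, 74409483 to 74429194) had the highest level of the 10 per transcript length, 217 TPM on average and above 96.4% of the genes tested. It stood at 277 and 227 CPM in PL1, 174 and 162 in PL12, 508 and 504 in PLA, and 328 and 310 in PLA4. The 4 lines did not overlap at all, in the order PLA, PLA4, PL1, PL12. Relative to PL12, G6pdx rose by 1.59 ± 0.14 in PLA and by 0.93 ± 0.14 in PLA4 on the log2 scale (SE, edgeR adjusted p = 0.00092 and 0.00488), and relative to PL1 by 1.005 ± 0.14 in PLA (0.00498). The difference of PLA4 from PL1, 0.34 ± 0.14, did not pass (0.175), although the libraries of PLA4 lay above those of PL1. PLA4 was below PLA by -0.67 ± 0.14 (0.0172), and PL12 below PL1 by -0.59 ± 0.14 (0.0296), so the lines of each family differed as well. The last of these missed the threshold without PL1 replicate 1 (0.0635) and without any 1 library of PL12 or PLA (0.0913 to 0.165). PLA4 against PLA missed it without PLA replicate 1 (0.146) or 2 (0.138) or PLA4 replicate 2 (0.0592), and PLA against PL1 without PLA replicate 1 (0.0609) or 2 (0.0589). G6pdx overlaps Ikbkg on the opposite strand, with 72601 counts against 285204, while its intronless copy G6pd2 had 71.3 counts in all.

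Aldh3a1 encodes a cytosolic aldehyde dehydrogenase that oxidises aromatic and lipid-derived aldehydes and is abundant in cornea and induced in airway epithelium, and Nqo1 encodes a quinone reductase that is often used as a marker of NRF2 activity. Aldh3a1 (ENSMUSG00000019102.10, chromosome 11, 61207537 to 61218421) stood at 20.7 and 24.9 CPM in PL1, 15.1 and 14.99 in PL12, 131 and 127 in PLA, and 54.3 and 96.2 in PLA4. Every library of PLA and PLA4 was above every library of PL1 and PL12. Aldh3a1 rose in PLA by 2.50 ± 0.27 over PL1 and 3.10 ± 0.28 over PL12, and in PLA4 by 1.72 ± 0.27 and 2.32 ± 0.27, on the log2 scale (SE, edgeR adjusted p = 0.00232, 0.00091, 0.0202 and 0.00213). In CPM, the mean of the PLA lines was 5.39 times that of the PL lines, and 4.84 to 5.95 times when any 1 library was left out. PLA4 and PLA (-0.78 ± 0.26, adjusted p = 0.0667) and PL12 and PL1 (-0.60 ± 0.26, 0.145) did not pass, with no overlap between the libraries of either pair. The comparison of PLA4 with PL1 missed the threshold without any 1 library of PL12 (0.0698 and 0.0692) or PLA (0.0687 and 0.0685), with log2 differences between 1.72 and 1.73.

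Nqo1 (ENSMUSG00000003849.8, chromosome 8, 107388225 to 107403206) had the lowest level of the 10, from 0.14 to 7.69 TPM. Its counts were 12 and 63 in PL1, 13 and 22 in PL12, 879 and 747 in PLA, and 439 and 48 in PLA4, or 0.138 and 0.555, 0.266 and 0.202, 7.14 and 6.32, and 3.40 and 0.332 CPM. Both PLA libraries and PLA4 replicate 1 were high, and PLA4 replicate 2 lay within the range of PL1. Nqo1 rose in PLA by 4.26 ± 1.17 over PL1 and 4.86 ± 1.23 over PL12 on the log2 scale (SE, edgeR adjusted p = 0.0403 and 0.0233), while the differences of PLA4 from PL1 (2.41 ± 1.09, 0.200) and PL12 (3.003 ± 1.14, 0.0840) did not pass. PLA held 28.8 times the CPM of PL12 and 19.4 times that of PL1, which became 12.1 times without PL1 replicate 1 and 48.8 times without PL1 replicate 2. Both calls were lost without any 1 library of PL12 or PLA (0.0806 to 0.145), and that against PL1 also without PL1 replicate 1 (0.139) or 2 (0.0587). The test over the 4 lines went from 0.0280 to 0.0940 to 0.105 without a PL12 or PLA library.

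Hmox1 encodes haem oxygenase 1, which breaks down haem and is induced by NRF2 once the repressor BACH1 leaves its enhancers. Hmox1 (ENSMUSG00000005413.8, chromosome 8, 75093621 to 75100589) stood at 36.9 and 104 CPM in PL1, 39.3 and 40.6 in PL12, 38.8 and 39.5 in PLA, and 31.4 and 48.0 in PLA4. PL1 replicate 2 stood apart from the other 7 libraries, and the lines otherwise overlapped (edgeR adjusted p over the lines = 0.283). PL1 held 1.76 times the mean of PL12, 1.79 times that of PLA and 1.77 times that of PLA4, which became 0.923, 0.942 and 0.929 without PL1 replicate 2. The test over the lines passed without PL1 replicate 1 (0.0136), where PL1 is represented by the high library alone.

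Setting each PLA line against each PL line gave 4 comparisons, and Aldh3a1 was the only gene of the 10 called with the same sign in all 4, against 1.99% of all genes called in either direction and 1.23% called higher. Without any 1 library of PL12 or PLA this count was 0 of 10, through the comparison of PLA4 with PL1, and the count over all genes fell from 372 to between 36 and 50. Srxn1 joined Aldh3a1 without PL1 replicate 2, where the count over all genes was nearly unchanged. Nqo1 joined it without PLA4 replicate 2, where the count over all genes rose too. The libraries of the families did not overlap for 2 of 10 genes, Aldh3a1 and G6pdx, both higher in the PLA lines, against 8.56% of all genes higher, 7.18% lower and 15.7% in either direction. By pair, 3 of the 10 were called higher (14.4% of all genes) and 1 lower (13%) in PLA against PL1, 4 higher (20.4%) and 1 lower (17.3%) in PLA against PL12, 1 higher (4.61%) and 1 lower (3.93%) in PLA4 against PL1, and 2 higher (19.2%) and 1 lower (16.8%) in PLA4 against PL12. In either direction these were 4 (27.3%), 5 (37.7%), 2 (8.54%) and 3 (36%). Within the families, 3 were called in PL12 against PL1 (23.7%), 1 higher (11.2%) and 2 lower (12.5%), and 1 was called in PLA4 against PLA (29%), lower (14.9%). The 4 comparisons share their lines, so they are not separate evidence.

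**Figure D2:**
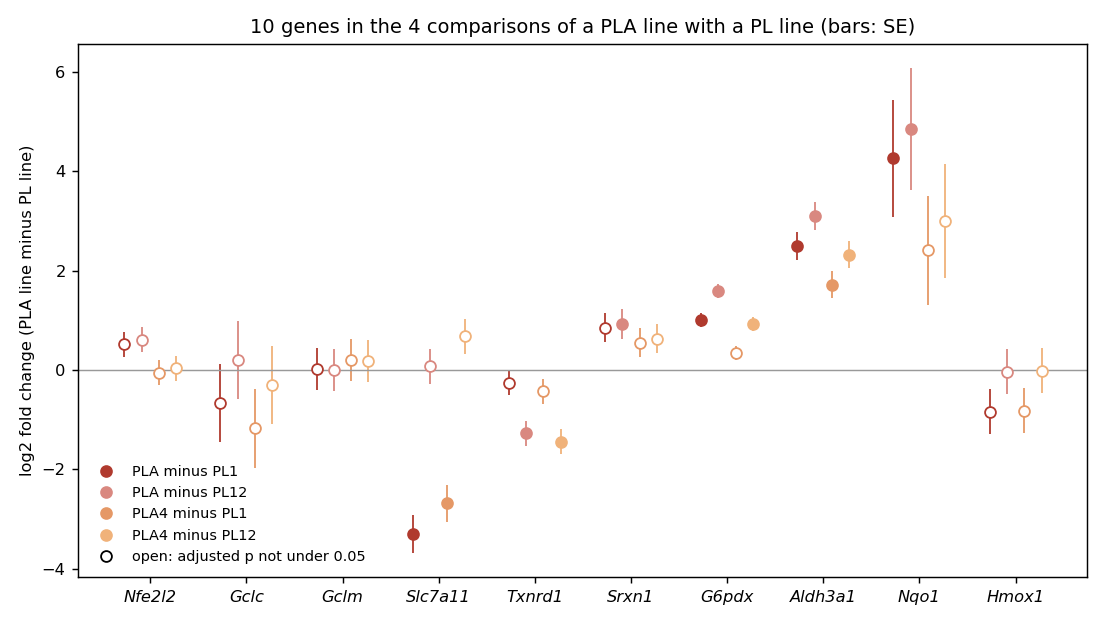
Log2 fold change with its SE for each gene in the 4 comparisons between the families, with filled points where the edgeR adjusted p was under 0.05. All 4 points of Aldh3a1 are filled and above 0, Slc7a11 is below 0 only against PL1 and Txnrd1 is below 0 with filled points only against PL12.

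With the line as the unit of replication, counts were summed over the 2 libraries of a line and 2 PLA profiles were set against 2 PL profiles. No gene of the 10 was called by edgeR, and none of the 18859 genes tested was (0%, lowest adjusted p = 0.852). At an unadjusted p under 0.05, 2 of the 10 passed, against 867 genes or 4.6% of all. These were Aldh3a1, with a log2 difference of 2.44 ± 0.44 (SE), and Nqo1, with 3.85 ± 1.01. DESeq2 called the same 2 genes (adjusted p = 0.00325 and 0.00315), and limma on log2(TPM + 1) called 0 of the 10. How many of all genes DESeq2 called on summed profiles was not counted, so its 2 calls have no background share. On the 8 libraries DESeq2 called 848 genes in all 4 comparisons, against 372 with edgeR. Of the 10, 6 were positive (Nfe2l2, Gclm, Srxn1, G6pdx, Aldh3a1 and Nqo1), with a median of 0.20 on the log2 scale, beside a median of 0.04 and 52.6% positive over all genes. The number positive was 6 under each of the 4 scalings tried.

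Several of these genes differed widely between the 2 libraries of PL1 or of PLA4. In PL1, replicate 2 held 4.50 times the CPM of replicate 1 for Gclc, 4.02 times for Nqo1, 2.81 times for Hmox1 and 2.17 times for Slc7a11. In PLA4, replicate 1 held 10.2 times the level of replicate 2 for Nqo1, 3.76 times for Gclc and 2.83 times for Gclm. Thus 4 of the 10 genes lay more than 2-fold apart in PL1 (22.2% of all genes), 3 in PLA4 (23.8%), 0 in PL12 (11.4%) and 0 in PLA (7.55%). Much of the background comes from genes at low counts. Among genes averaging 5 CPM or more, which leaves out Nqo1, the figures were 3 of 9 in PL1 (9.26%) and 2 of 9 in PLA4 (10.6%).

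Gclc and Nqo1 were over 2-fold higher both in PL1 replicate 2 and in PLA4 replicate 1, 2 of 10 genes against 6.09% of all genes. Only Gclc did so among genes of at least 5 CPM, 1 of 9 against 2.76%. In the same direction without regard to size were 6 of 10, namely Nfe2l2, Gclc, Gclm, Txnrd1, Srxn1 and Nqo1, against 27.2% of all genes. Nfe2l2 itself was 1.51 times higher in PL1 replicate 2 and 1.46 times higher in PLA4 replicate 1. Slc7a11, Hmox1 and Aldh3a1 did not share the pattern, being lower in PLA4 replicate 1 than in replicate 2, at 0.73, 0.65 and 0.56 times its level, and G6pdx was close to even, at 0.82 times in PL1 and 1.06 times in PLA4. With 1 library a side these ratios carry no test. Fibroblast markers moved with the PL1 libraries (0.79 and 83.4 TPM) but stood at 3.03 TPM or less in PLA4, and their part in the PL1 difference was not tested.

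**Figure D3:**
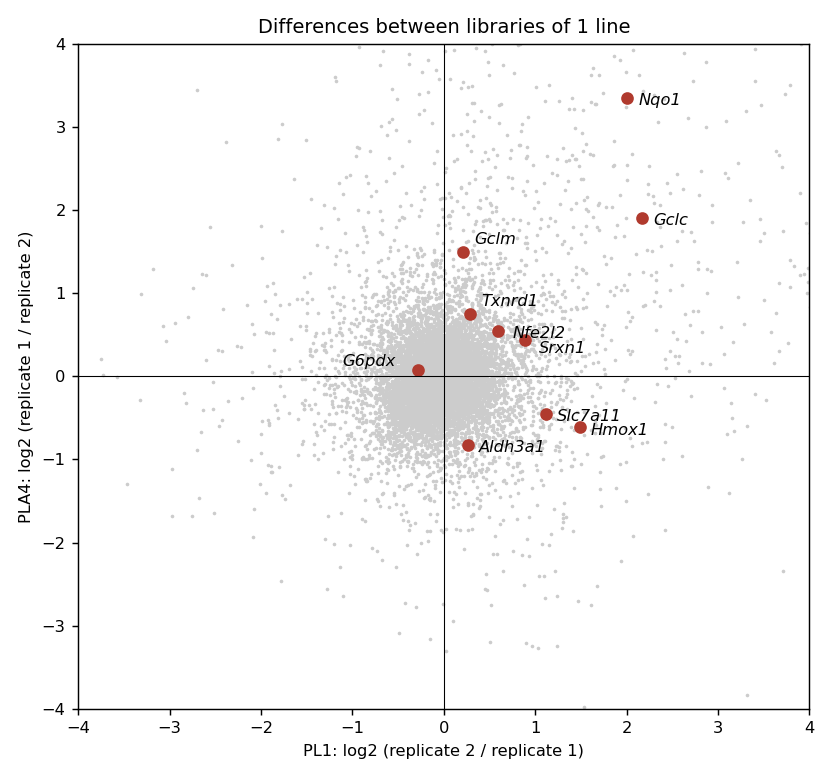
Each point is a gene, with the log2 ratio of PL1 replicate 2 to replicate 1 on the horizontal axis and that of PLA4 replicate 1 to replicate 2 on the vertical axis, for genes averaging 5 CPM or more in grey and the 10 named genes in red. Genes with larger ratios lie outside the axes. Nqo1 and Gclc lie far out in the upper right, Nfe2l2, Txnrd1, Srxn1 and Gclm lie in the same quadrant, and Slc7a11, Hmox1 and Aldh3a1 lie below the horizontal line.

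Across the 8 libraries, which come in pairs from the same 4 lines and differ in depth, the log2(CPM + 1) values fell into patterns that the line means only partly show. G6pdx and Aldh3a1 followed each other most closely (Pearson r = 0.93, n = 8 libraries), then Srxn1 and Nqo1 (0.88) and Nfe2l2 and Nqo1 (0.87). Txnrd1 ran opposite to Aldh3a1 (-0.79) and to G6pdx (-0.76). Nfe2l2 had an r of 0.88 with the mean of the 9 other genes after centring each. Singly, its r was -0.18 with Slc7a11, -0.09 with Txnrd1 and 0.09 with Hmox1, and 0.49 (Gclm) to 0.87 (Nqo1) with the others. The 9 did not share a single pattern. With the mean of the remaining targets, Txnrd1 had an r of -0.53, Slc7a11 -0.19 and Hmox1 0.20, while Srxn1 had 0.73. The mean of the 9 was highest in PL1 replicate 2 (0.45 on the log2 scale), PLA replicates 1 and 2 (0.38 and 0.38) and PLA4 replicate 1 (0.19). It was lowest in PL12 (-0.37 and -0.45), PLA4 replicate 2 (-0.31) and PL1 replicate 1 (-0.27). The libraries of PLA thus lay close together below PL1 replicate 2, and those of PL12 lay close together at the lower end. Those of PL1 and of PLA4 lay apart. The 5 other genes most like the mean of the 9 among 3861 ranked were Il1rn (r = 0.98), Ern1 (0.98), Vnn1 (0.97), Cybb (0.97) and Fmo2 (0.97), each with 8 libraries. Cybb, which encodes the catalytic subunit of the phagocyte NADPH oxidase, stood at 14.1 and 516 CPM in PL1, 17.2 and 11.7 in PL12, 885 and 937 in PLA, and 369 and 44.6 in PLA4. Vnn1, a pantetheinase, stood at 20.1 and 415 CPM in PL1, 19.2 and 16.3 in PL12, 566 and 588 in PLA, and 99.3 and 31.6 in PLA4. Ptprc, the pan-leukocyte marker, was at or below 0.01 TPM in the same libraries. Itgam, another of the immune markers, stood at 17.2 and 16.1 TPM in PLA and at 0.05 to 0.37 TPM elsewhere. The immune markers Csf1r and Ly6g were instead highest in PL12, with Csf1r at 1.42 and 2.13 TPM in PLA. The source of the Cybb transcripts was not tested.

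The wider pathway was read from 7 lists of its genes, which leave out the 10 themselves. As given above, 52.9% of all genes differed among the lines, 1.23% were called higher and 0.767% lower in all 4 comparisons between the families, and the median log2 difference on summed profiles was 0.04. Among 15 genes that control NRF2, 9 differed among the lines in the edgeR F-test, and none was called in all 4 comparisons. The median log2 difference on summed profiles was 0.25. Keap1 was among the 9 (adjusted p = 0.0122), with line means of 51.1 CPM in PL1, 64.1 in PL12, 79.3 in PLA and 59.1 in PLA4. Mafk, a small MAF partner, stood at 146 CPM in PLA against 38.2 in PL1, 58.9 in PL12 and 36.4 in PLA4 (edgeR adjusted p = 0.00355). Palb2, which binds KEAP1 besides its role in DNA repair, was below all PL libraries in the PLA lines, at 2.45 CPM in PLA and 6.08 in PLA4 against 8.64 in PL1 and 10.9 in PL12. Btrc, a ubiquitin ligase subunit that offers another route to NRF2 degradation, averaged 32.8 and 36.8 CPM in PLA and PLA4 and 27.2 and 20.5 CPM in PL1 and PL12.

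Of 32 glutathione genes tested, 20 differed among the lines, and 2 were called higher in all 4 comparisons, Mgst2 and Gstm5, with a median log2 difference of 0.67 on summed profiles. Mgst2, a microsomal glutathione transferase, stood at 13.6 CPM in PLA and 21.9 in PLA4 against 4.08 in PL1 and 2.38 in PL12. Gstm5 held 8.38 and 8.22 CPM in the PLA lines and 3.69 and 3.45 CPM in the PL lines. The transferases Gsta4 and Gsta3 were instead low in PL12 alone (69.7 and 11.5 CPM there, against 387 and 104 in PL1, 514 and 190 in PLA, and 396 and 160 in PLA4). Gpx2, an epithelial glutathione peroxidase, differed in every pair of lines and was highest in PLA4 at 574 CPM, with 174 in PL1, 86.5 in PLA and 33.2 in PL12.

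Among 18 thioredoxin and peroxiredoxin genes, 10 differed among the lines, and Txnip was called higher in all 4 comparisons. Txnip encodes a protein that binds and inhibits thioredoxin. Its line means were 334 CPM in PLA and 163 in PLA4 against 40.6 in PL1 and 95.4 in PL12. Prdx4, a peroxiredoxin of the endoplasmic reticulum, was low in PLA (13.3 CPM against 36.8 to 47.7 in the other lines), and Sesn1, a sestrin, was highest in PLA4 (66.4 CPM) and lowest in PL12 (5.89). The 18 rows for NADPH supply gave 11 that differed among the lines and 0 called in all 4, with a median of -0.10, where Nnt took 2 rows under 2 gene identifiers. H6pd, the counterpart of G6pdx in the endoplasmic reticulum, stood at 71.3 CPM in PLA and 17.5 to 23.2 elsewhere, Me3 at 17.97 CPM in PLA4 and 2.22 to 3.94 elsewhere, and Rpia at 44.96 and 40.1 CPM in PLA and PL12 against 14.2 and 19.4 in PLA4 and PL1.

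Of 11 haem and iron genes, 9 differed among the lines, and the transferrin receptor gene Tfrc was called lower in all 4 comparisons. Tfrc stood at 47.6 CPM in PLA and 201 in PLA4 against 310 in PL1 and 448 in PL12. Alad, which acts early in haem synthesis, was high in PL12 (34.4 CPM, 6.47 to 9.004 elsewhere), and Blvrb, a biliverdin reductase, was low there (3.41 CPM, 13.2 to 22.8 elsewhere). The 14 xenobiotic genes gave 10 that differed and 0 called in all 4. Por, the reductase that feeds cytochromes P450, stood at 393 CPM in PL12 and 341 in PLA against 96.5 in PL1 and 89.6 in PLA4. The glucuronosyltransferase Ugt1a6a was low in PL12 at 14.0 CPM, against 115 in PL1, 167 in PLA and 131 in PLA4, and Ugt1a7c stood at 31.7 CPM in PL12 and 48.8 in PLA4 against 161 in PL1 and 166 in PLA. The Ugt1a genes share their last exons, so how counts were split between them is uncertain.

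Aldehyde metabolism is the list that Aldh3a1 belongs with in function. Of its 28 other tested genes, 18 differed among the lines and 3 were called higher in all 4 comparisons, with none called lower and a median of 0.22. Aldh6a1, the mitochondrial methylmalonate semialdehyde dehydrogenase, stood at 28.2 CPM in PLA and 27.4 in PLA4 against 10.7 in PL1 and 6.56 in PL12 (edgeR, largest adjusted p of the 4 = 0.0142). Aldh1a3, which makes retinoic acid, stood at 27.4 and 14.0 CPM in the PLA lines and 2.07 and 4.204 CPM in the PL lines (0.0328). Aldh3b2, a lipid-associated relative of Aldh3a1, stood at 1.91 and 3.07 CPM against 0.0644 and 0.0297 (0.0157). PL1 replicate 2 held 0.106 CPM of Aldh3b2, and the other PL libraries were below the level of 3 counts. Aldh1a1, a cytosolic retinal dehydrogenase, was above all PL libraries in both PLA lines but mostly through PLA4, at 89.2 and 34.7 CPM against 5.52 and 6.12 in PLA, 3.29 and 3.78 in PL12, and 0.357 and 0.432 in PL1. Its family ratio of 17.2 became 10.3 without PLA4 replicate 1. Adh7, an alcohol dehydrogenase of stratified epithelium that oxidises retinol, was high in PLA4 alone, at 104 and 70.9 CPM, with 0.309 and 0.245 CPM in PLA. Of the mitochondrial Aldh2, every PLA-line library was above every PL library (line means of 193 and 99.0 CPM in PLA and PLA4, 12.9 and 53.1 in PL1 and PL12). Not all members of the list were higher in the PLA lines: 17 of the 28 were positive on summed profiles, beside 52.6% of all genes. Akr1c12 was below all PL libraries in the PLA lines (8.55 and 4.43 CPM against 25.0 and 14.2), without passing the test over the lines.

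**Figure D4:**
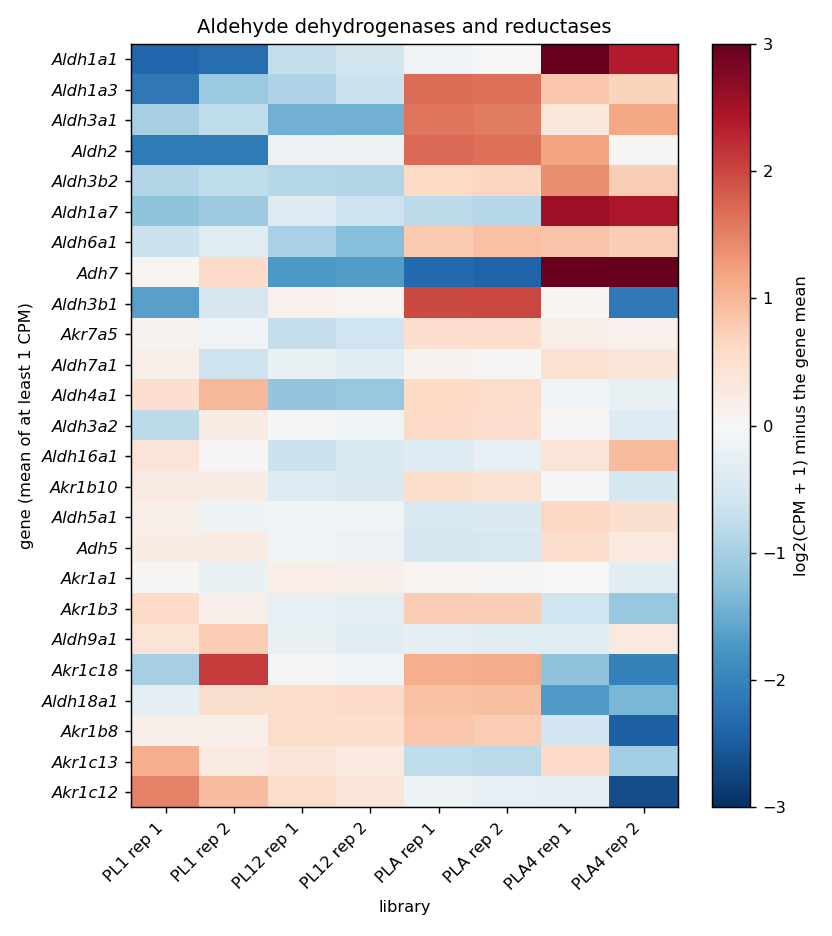
Aldehyde dehydrogenases and reductases with a mean of at least 1 CPM, as log2(CPM + 1) minus the mean of the gene over the 8 libraries, with colours limited at 3 in both directions. The 25 genes include Aldh3a1 and are ordered from those higher in PLA and PLA4 at the top to those higher in PL1 and PL12 at the bottom. Aldh1a3, Aldh3a1, Aldh3b2 and Aldh6a1 are red in all 4 PLA-line libraries and blue in all 4 PL libraries, whereas Adh7 is red in PLA4 and blue in PLA.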

How the data were processed

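RNA-seq of 8 libraries from 4 mouse LUSC lines was used. Per the labels' protocols, total RNA was column-purified, converted to cDNA by a SMARTer kit and made into Nextera XT libraries. Expected counts (estimates that can hold fractions of a read) and TPM were deposited for each gene, per the file headers. The submitters' processing notes name FastQC, STAR, RSEM, DESeq2 and GRCm38. Versions, annotation release and strand setting are not given in the sources used here. Of the count values, 14.2% were not whole, and all were rounded before testing.

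Counts were tested with edgeR 4.0.16 (quasi-likelihood, TMM, filterByExpr with a minimum count of 10 and a minimum total of 15; limma 3.58.1, R 4.3.3), with 1 mean per line over 8 libraries and 4 residual degrees of freedom, and on counts summed per line. Adjusted p is Benjamini-Hochberg over all genes tested, with a threshold of 0.05. SEs were obtained from the F statistics. The alternatives tried were other scalings and filters, DESeq2 1.42.0, limma on log2(TPM + 1) and log2(TPM + 0.1), a replicate block, and leaving out libraries or lines. Named genes were the 10 members and, per list, the 3 tested genes of at least 5 CPM with the smallest adjusted p over the lines plus any called in all 4 comparisons of a PLA with a PL line; Keap1, Aldh2, Akr1c12 and the G6pdx and Gclm neighbours were chosen after their values were seen. Pattern likeness took the 5 highest r among genes of at least 5 CPM with an SD over libraries of at least 0.5. The members and lists were chosen with earlier results of these data known. Coordinates are from GENCODE on GRCm38, with all 10 identifiers matched by version. On simulated data with the observed depths, the F-test recovered 69% of genes changed 4-fold and 95% of those changed 16-fold, with 10 false calls among 18062 genes. Each simulated gene had the same spread in all lines and changed equally in both lines of a family. These figures therefore do not describe the test under the unequal spread of the real lines. A floor of 3 counts corresponds to between 0.0211 and 0.0614 CPM, and covers counting error only.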

Additional observations from a re-analysis of the deposited data

How the results depend on the processing

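The number of the 10 genes differing among the lines was 5, and 3 to 7 without any 1 library. Called combinations of gene and pair of lines numbered 18, and 8 to 25 without any 1 library, with the lowest counts without a PLA library. Aldh3a1 alone was called in all 4 comparisons between the families, and 0 to 2 genes were without any 1 library. Leaving out PL1 replicate 1 and PLA4 replicate 2 together gave counts of 10, 50 and 4, and leaving out PL1 replicate 2 and PLA4 replicate 1 gave 10, 47 and 2. By construction these fits estimate the spread from PL12 and PLA alone, whose libraries lay closest together. Both fits also called far more of all genes in all 4 comparisons than the main setting did. The rise in that count is therefore not particular to the 10 genes. For genes differing among the lines and for called combinations, the share of all genes was counted only in the main setting. In every other setting those counts have no background share. The first also called G6pdx in PLA4 against PL1 (0.54 on the log2 scale). Of the other 41 combinations of gene and pair not called before, they called 31 and 29, of which 4 and 9 had the other sign, so for those the direction depends on which library stands for PL1 or PLA4. On summed profiles DESeq2 called 2 genes and every other setting 0. Summed log2 differences changed sign for genes that were not called: Gclm became -0.12 with limma on log2(TPM + 1) and on log2(TPM + 0.1), -0.31 without PLA4 replicate 1 and -0.28 without that library and PL1 replicate 2, Gclc became 0.22 and Hmox1 0.03 without PL1 replicate 2, Hmox1 0.15 without that library and PLA4 replicate 1, Slc7a11 0.45 without the line PL1, and Nfe2l2 -0.039 without the line PLA. Over the settings without 1 or 2 libraries the summed difference of Gclc reached -1.03, that of Gclm 0.44 and that of Hmox1 -1.05. The cause of these changes was not tested. All calls of Aldh3a1 other than PLA4 against PL1 passed under each of the 18 settings of the library fit.

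Over 18648 genes the differences of replicate 2 from replicate 1 correlated between -0.19 and 0.01 across lines. No marked positive correlation by replicate number was seen, and whether libraries of the same number were handled together was not tested. With a replicate block 4 genes differed among the lines, 15 combinations were called and 1 gene was called in all 4 comparisons, and Nqo1 had an adjusted p over the lines of 0.0532 (edgeR). Over all genes, the number called in all 4 comparisons fell from 372 in the main setting to 132 with the block. The number of all genes differing among the lines or called by pair was not counted with the block. Whether the lost calls are particular to the named genes was therefore not tested. The calls that the block ended were Txnrd1 in PL12 against PL1 (0.0569), Srxn1 in PLA against PL12 (0.0789) and Nqo1 in PLA against PL1 (0.0725).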
